A study of Fukomys damarensis and Heterocephalus glaber and Cavia porcellus with 28 samples.

Results

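The hexokinases and the glucose transporters of the SLC2A family carry out the opening steps of glucose use, and 7 of their genes were followed here in heart and liver of 4 rodent species. The genes were Hk1, Hk2, Hk3, Slc2a1, Slc2a2, Slc2a3 and Slc2a4, chosen by name and found through the mouse Ensembl identifiers of the deposited tables. Of these 7, 6 had a row among the 13928 genes of each table, and Slc2a3 is not analysed here. In heart 5 of the 6 passed the filter on low values and were tested (Hk3 did not), and in liver all 6 were tested. The filter used the mean over all libraries of a tissue, so a gene could pass through the species in which it was high; Slc2a2 in heart, Hk3 in liver and Slc2a4 in liver did so, and the counts of calls below are no support for differences of these genes.

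Hexokinases phosphorylate glucose and so trap it inside the cell. Hk1 is the broadly expressed form, Hk2 is the form of insulin-sensitive muscle and fat, and Hk3 is known mainly from cells of the myeloid blood lineage. The SLC2A proteins let glucose cross membranes by facilitated diffusion. Slc2a1 encodes GLUT1, a basal transporter of many cells, Slc2a2 encodes GLUT2 of hepatocytes, and Slc2a4 encodes GLUT4, which moves to the surface of heart muscle and fat cells when insulin or contraction calls for it.

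Total RNA depleted of ribosomal RNA was sequenced from 28 tissue samples of 18 animals, 10 of which gave both tissues, to set naked and Damaraland mole-rats against guinea pig and mouse as outgroups. Heart came from 3 naked mole-rats aged 13 to 17 months, 5 Damaraland mole-rats aged 36 to 48 months, 3 guinea pigs aged 2.3 months and 3 mice aged 2 months, and these animals were male. Livers of the same ages were from 4 naked mole-rats, 5 Damaraland mole-rats of which 1 was female, and 3 guinea pigs beside 2 mice, the others all male. For 1 Damaraland mole-rat that gave both tissues, the heart label gives 48 months and the liver label 36 months. No strain, treatment or housing is given in the labels used here, and species and age cannot be told apart.

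Levels are given on the deposited log2-like scale, on which 0 reads stand at 5.36 for heart and at 4.29 for liver, or as scaled reads, which are the recovered reads of a library divided by its size factor. The log2-like scale compresses differences of rare genes, and neither scale corrects for gene length, so levels are compared between species for the same gene. A difference between gene models of the species, and a smaller number of cells of a type against less RNA per cell, cannot be told apart from a difference in expression in these bulk samples. A difference was called at an adjusted p under 0.05 (limma, Benjamini-Hochberg over all genes tested) and a size of at least 1, and errors are SD over animals or, for differences, the limma SE. Libraries held 4089633 to 26985779 recovered reads in heart and 11220505 to 21467939 in liver, and naked mole-rat heart replicate 3 was the shallowest. The 6 cardiomyocyte markers summed to 515500 to 1781790 scaled reads in the heart libraries and to 479 to 3392 in the liver libraries. Of 6 hepatocyte markers 5 were in the tables, and these summed to 884667 to 2892430 scaled reads in liver.

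In heart the species differed most in Hk2, and it was not the mole-rats together that stood apart. Over the 6 pairwise contrasts of the 4 species, 14 of 30 gene-by-contrast results of these genes were called (46.7%), 8 higher and 6 lower in the species named first, beside 32.9% over all genes tested. In the single contrasts the share over all genes was 33% for naked mole-rat against guinea pig, 38.2% for naked mole-rat against mouse, 29.7% for Damaraland mole-rat against guinea pig, 34.9% for Damaraland mole-rat against mouse, 29.4% between the mole-rats and 32.1% for guinea pig against mouse. The libraries of both species were apart, without overlap, in 22 of the 30 (over all genes in 64.3%). No gene of the 5 was called in the same direction in all 4 contrasts of a mole-rat with an outgroup, which 4.68% of all genes were. Of the 14 calls 7 also passed a test against a difference of 1: Hk1 of naked mole-rat against guinea pig and of guinea pig against mouse, 4 contrasts of Hk2, and Slc2a2 of naked mole-rat against mouse. The 3 Slc2a2 calls were absent when a gene had to pass the filter in each species, which left 11 calls.

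**Figure D1:**
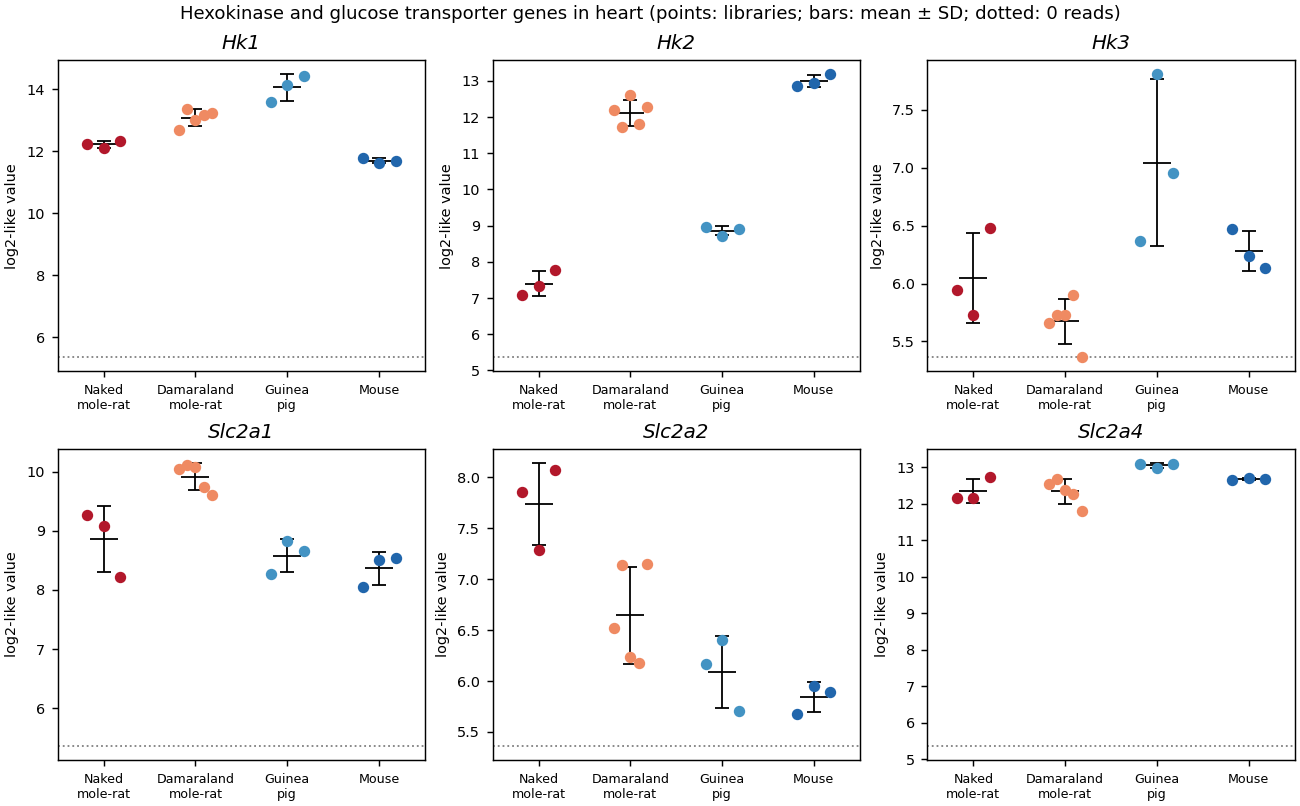
Heart libraries of the 4 species, 1 panel for each gene, on the deposited log2-like scale. Points are libraries, bars are mean ± SD (n = 3 for the naked mole-rat, 5 for the Damaraland mole-rat, 3 for guinea pig and 3 for mouse), and the dotted line at 5.36 is the value of 0 reads. Hk2 lay between 7.08 and 7.78 in naked mole-rat hearts and between 11.72 and 12.61 in Damaraland hearts.

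Hk2 (ENSMUSG00000000628) was low in naked mole-rat and guinea pig hearts and high in Damaraland and mouse hearts. Naked mole-rat hearts had 65.1, 90.2 and 144 scaled reads and guinea pig hearts 417, 342 and 397. Damaraland hearts had 4621, 3280, 6160, 3485 and 4862, and mouse hearts 7269, 7844 and 9211. No libraries of any 2 species overlapped. The ratio of mean scaled reads was 44.9 for Damaraland over naked mole-rat and 81.2 for mouse over naked mole-rat. Guinea pig hearts were lower than Damaraland hearts by a ratio of 11.6 and lower than mouse hearts by a ratio of 21.

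On the log2-like scale Hk2 was 7.40 ± 0.35 (SD, n = 3) in naked mole-rat, 12.12 ± 0.37 (n = 5) in Damaraland mole-rat, 8.86 ± 0.12 (n = 3) in guinea pig and 12.99 ± 0.17 (n = 3) in mouse heart. Naked mole-rat was lower than Damaraland mole-rat by −4.72 ± 0.20 (SE; limma adjusted p = 1.00e-11), than mouse by −5.60 ± 0.23 (adjusted p = 3.88e-12) and than guinea pig by −1.46 ± 0.23 (adjusted p = 3.67e-05). Hk2 was thus called lower in the naked mole-rat against each other species, as were 4.14% of all genes. Damaraland mole-rat exceeded guinea pig by 3.26 ± 0.20 (adjusted p = 8.93e-10) and was below mouse by −0.87 ± 0.20 (adjusted p = 0.00121), a difference under the size threshold. Guinea pig was below mouse by −4.14 ± 0.23 (adjusted p = 1.85e-10).

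The average of the mole-rats was below that of the outgroups by −1.17 ± 0.15 (limma adjusted p = 4.28e-06), an average over mole-rats that lay on opposite sides of the guinea pig. Without naked mole-rat heart replicate 3, the shallowest library, the naked mole-rat difference from Damaraland mole-rat was −4.91 and that from guinea pig −1.65. The summed cardiomyocyte markers were 515500 to 977240 scaled reads in naked mole-rat, 1309180 to 1781790 in Damaraland, 756156 to 869852 in guinea pig and 1049950 to 1141580 in mouse hearts. Myh6, the largest part of that sum, averaged 239719, 958792, 384282 and 565633 in these species, lowest in naked mole-rat and highest in Damaraland hearts. Not every cardiomyocyte marker had the order of the sum: Ryr2 averaged 130122, 52709, 92095 and 68408, highest in naked mole-rat hearts. The sum of 5 skeletal muscle markers was 21636 to 29515 in naked mole-rat, 111566 to 194740 in Damaraland, 67243 to 73418 in guinea pig and 45020 to 53853 in mouse hearts. Most of that sum was Ckm, a creatine kinase gene that heart muscle also expresses, with averages of 16908, 136381, 68334 and 43245. Acta1 (8495, 6507, 2642 and 7415) and Myh4 (148, 42.2, 0.650 and 4.96) had their highest average in naked mole-rat hearts. Myh1 was also highest there, with 93.9 to 370 scaled reads and at most 26.6 in a heart of another species. Mybpc1 went the other way, with averages of 10.2, 257, 0.518 and 5.47 and thus its highest in Damaraland hearts. The part of either marker list in the Hk2 result was not tested.

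Hk1 (ENSMUSG00000037012), the basal hexokinase, had another order: guinea pig highest, then Damaraland mole-rat, naked mole-rat and mouse. Guinea pig hearts had values of 13.59, 14.13 and 14.43 and Damaraland hearts 12.67, 13.36, 13.00, 13.16 and 13.22. Naked mole-rat hearts had 12.23, 12.12 and 12.34 and mouse hearts 11.76, 11.63 and 11.70. Each species' libraries were apart from those of its neighbour in the order, but neighbours differed by less than the size threshold: 0.97 between guinea pig and Damaraland mole-rat, 0.85 between the mole-rats and 0.53 between naked mole-rat and mouse (limma adjusted p = 0.00037, 0.00109 and 0.0396).

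Of the Hk1 differences in heart 3 were called. Guinea pig exceeded mouse by 2.36 ± 0.22 (adjusted p = 1.00e-07), a ratio of 5.37 in mean scaled reads. Naked mole-rat was below guinea pig by −1.82 ± 0.22 (adjusted p = 1.87e-06), and Damaraland mole-rat was above mouse by 1.39 ± 0.19 (adjusted p = 8.54e-06). The average of the mole-rats did not differ from that of the outgroups beyond the test (−0.22 ± 0.15, adjusted p = 0.193).

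The mix of hexokinase reads therefore differed between hearts. Of the reads of Hk1, Hk2 and Hk3 together, Hk2 took 71.2% ± 3.0 (SD, n = 3) in mouse and 34.1% ± 8.43 (n = 5) in Damaraland hearts, but 2.31% ± 0.850 (n = 3) in guinea pig and 2.04% ± 0.692 (n = 3) in naked mole-rat hearts. Hk1 took 28.6%, 65.9%, 97.3% and 97.7% in the same order. The Hk2 share of single Damaraland hearts ran from 23.9% to 43.1%, above every guinea pig and naked mole-rat heart (at most 3.29%) and below every mouse heart (at least 68.0%). These are shares of reads without correction for length, so they compare the same share across species and not the amounts of the enzymes.

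**Figure D2:**
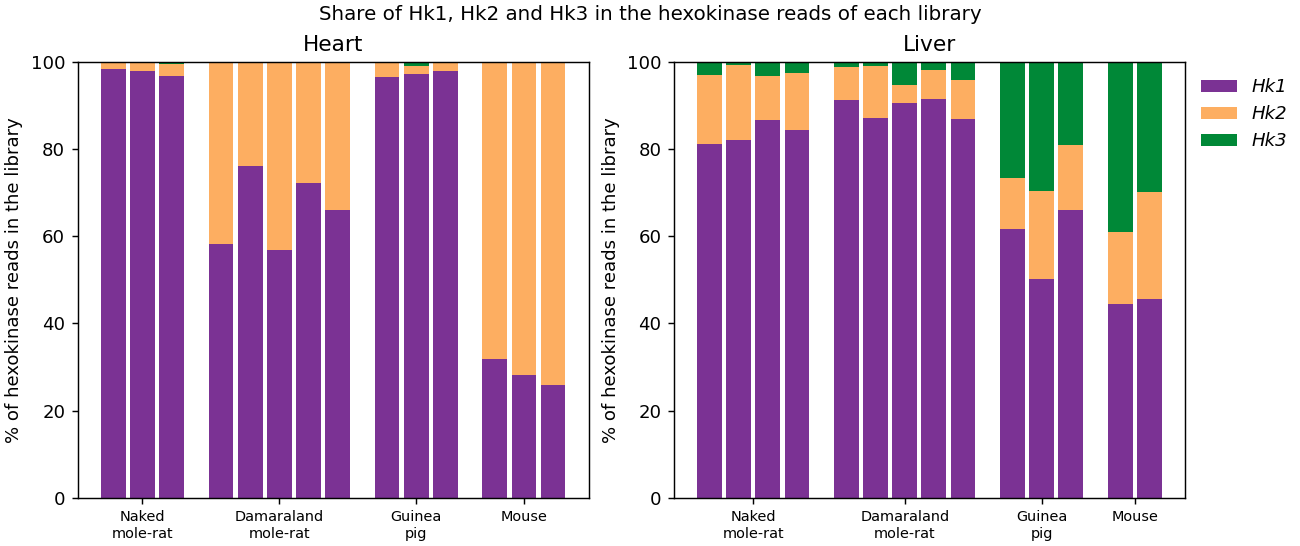
Shares of Hk1, Hk2 and Hk3 in the summed hexokinase reads of each library, as percent, in heart and liver. Hk2 made up 68.0% to 73.9% of these reads in mouse hearts and 1.36% to 2.74% in naked mole-rat hearts, while Hk3 was visible in guinea pig and mouse livers.

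Hk3 (ENSMUSG00000025877) was low in heart, near the limit of detection in the mole-rats, and was not tested there. Guinea pig hearts averaged 1.68 above the value of 0 reads, against 0.92 in mouse, 0.69 in naked mole-rat and 0.31 in Damaraland hearts. Guinea pig hearts had 32, 194 and 70 reads, mouse hearts 38, 20 and 15, and naked mole-rat hearts 8, 4 and 7. Damaraland hearts had 2, 3, 4, 6 and 0 reads, and the library with 0 reads allows up to 4.68 scaled reads (3 reads, counting error only). Damaraland hearts did not overlap with guinea pig or mouse hearts, and naked mole-rat hearts overlapped with each other species once reads were scaled. Of 12 leukocyte markers 9 were in the tables, and these summed to 704 to 1500 scaled reads in naked mole-rat, 1639 to 3409 in Damaraland, 1682 to 1991 in guinea pig and 1926 to 2530 in mouse hearts.

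Slc2a1 (ENSMUSG00000028645), the gene of GLUT1, was highest in Damaraland mole-rat hearts. Their values were 10.05, 10.12, 10.08, 9.74 and 9.61, above every heart of the other species. Naked mole-rat hearts had 9.27, 9.08 and 8.22, guinea pig hearts 8.26, 8.82 and 8.66, and mouse hearts 8.05, 8.51 and 8.54. These 3 species overlapped with each other, and no difference among them was called.

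Damaraland mole-rat exceeded mouse in Slc2a1 by 1.55 ± 0.22 (limma adjusted p = 1.20e-05) and guinea pig by 1.34 ± 0.22 (adjusted p = 6.72e-05). Naked mole-rat was below Damaraland mole-rat by −1.06 ± 0.22 (adjusted p = 0.000599). The ratios of mean scaled reads were 3.5, 2.89 and 2.20. Being called higher against each other species held for 3.86% of all genes in the Damaraland mole-rat. The difference between the mole-rats rested in part on the shallowest library, naked mole-rat heart replicate 3, which had 60 Slc2a1 reads: without it the difference was −0.74 and was no longer called, and with sample weights it was −0.86. Without the same library the average contrast of Slc2a1, 0.91 in the whole set and under the threshold, was 1.07 and called. The 6 endothelial markers summed to 14983 to 18403 scaled reads in naked mole-rat, 10314 to 15963 in Damaraland, 14380 to 18740 in guinea pig and 11032 to 14502 in mouse hearts, so the Damaraland sums overlapped with those of each other species. Single markers had different orders. Pecam1, Cdh5, Kdr and Tie1 averaged lowest in Damaraland hearts (Cdh5 1556 against 2112 to 3881), and Tek averaged highest there (1388 against 773 to 1116). Vwf averaged 8950, 5600, 2326 and 1632 in the order of the sums. The part of these markers in the Slc2a1 result was not tested.

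Slc2a4 (ENSMUSG00000018566), the gene of GLUT4, was not called in any of the 6 pairwise contrasts in heart. Values were 12.15, 12.15 and 12.72 in naked mole-rat, 12.52, 12.68, 12.38, 12.27 and 11.81 in Damaraland, 13.09, 12.97 and 13.08 in guinea pig and 12.64, 12.70 and 12.68 in mouse hearts. Guinea pig hearts were above those of each other species, by 0.70 ± 0.22 over naked mole-rat and 0.71 ± 0.19 over Damaraland mole-rat (limma adjusted p = 0.00945 and 0.00415), sizes under the threshold. The mole-rats differed by 0.0089 ± 0.19 (adjusted p = 0.971). The 4 adipocyte markers summed to 11 to 130 scaled reads in naked mole-rat, 173 to 524 in Damaraland, 22.1 to 56.0 in guinea pig and 4.01 to 9.29 in mouse hearts, and their part in the Slc2a4 values was not tested.

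Slc2a2 (ENSMUSG00000027690), the gene of the hepatocyte transporter GLUT2, was rare in heart and highest in naked mole-rat hearts. They had 157, 85 and 193 scaled reads, and Damaraland hearts had 27.9, 70.7, 15.5, 13.3 and 71.8. Guinea pig hearts had 13.0, 22.2 and 2.37 and mouse hearts 1.99, 7.0 and 5.62. Naked mole-rat hearts were apart from all others, while Damaraland and guinea pig hearts overlapped.

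Naked mole-rat exceeded mouse in Slc2a2 by 1.90 ± 0.28 (limma adjusted p = 1.57e-05), guinea pig by 1.65 ± 0.28 (adjusted p = 7.87e-05) and Damaraland mole-rat by 1.10 ± 0.25 (adjusted p = 0.00112). Being called higher in the naked mole-rat against each other species held for 4.87% of all genes. Slc2a2 passed the filter on low values through the mole-rats, which averaged 2.38 (naked) and 1.28 (Damaraland) above the value of 0 reads, against 0.73 in guinea pig and 0.48 in mouse hearts, and it was not tested when the filter was applied in each species. On recovered reads, with voom, the differences from mouse and guinea pig were 4.74 and 3.67, and Damaraland mole-rat against mouse (0.80, not called on the log2-like scale) was 2.67 and called. The difference between the mole-rats was no longer called without naked mole-rat heart replicate 3 (0.93), without Damaraland heart replicate 3 (0.99) or replicate 4 (0.98), or with sample weights (0.99).

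Hepatocyte markers moved with Slc2a2 in heart. The 5 markers summed to 10885 to 30953 scaled reads in naked mole-rat, 1778 to 5160 in Damaraland, 427 to 1993 in guinea pig and 324 to 1161 in mouse hearts, with none of the 5 at 0 in any species. Alb, the albumin gene, averaged 20193, 2790, 949 and 445 scaled reads in the same order. For each 1000 reads of these markers there were 5.08 to 7.81 Slc2a2 reads in naked mole-rat, 7.06 to 14.3 in Damaraland, 5.55 to 12.0 in guinea pig and 5.95 to 17.3 in mouse hearts. Livers had 3.47 to 4.94 such reads in naked mole-rat, 6.82 to 8.94 in Damaraland, 7.05 to 9.14 in guinea pig and 5.54 to 6.21 in mouse. Every naked mole-rat heart was above every liver of its species in this ratio, but the lowest heart (5.08) lay close to the highest liver (4.94). In the other species hearts and livers overlapped. The heart ratios of guinea pig (20, 29 and 3 Slc2a2 reads) and mouse (3, 9 and 7) rested on few reads. No counting error was computed for these ratios. The part of hepatocyte RNA in the Slc2a2 result was not tested.

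**Figure D3:**
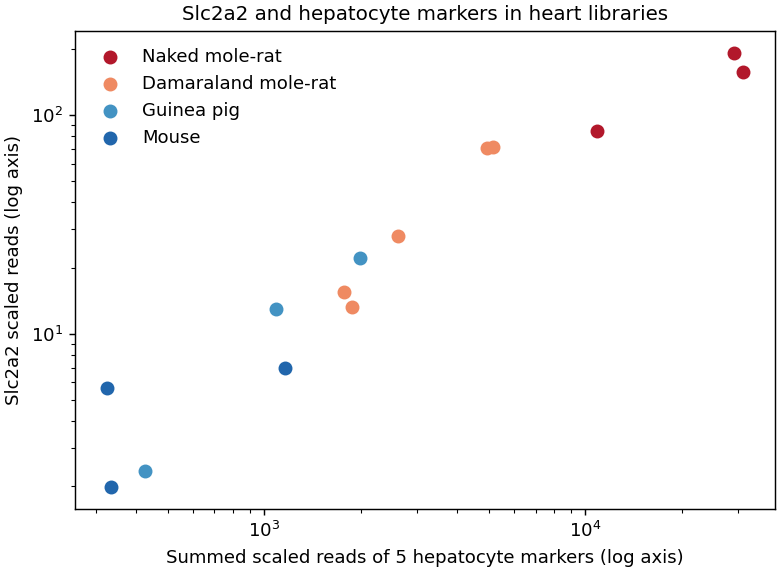
Slc2a2 in each heart library (scaled reads, log axis) against the summed scaled reads of 5 hepatocyte markers (log axis). Points are libraries coloured by species; the 3 naked mole-rat hearts lie at 85 to 193 Slc2a2 scaled reads and 10885 to 30953 marker reads, the upper end of both axes.

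In the average of the mole-rats against that of the outgroups, 2 of the 5 genes were called in heart, beside 23.4% of all genes. Slc2a2 was higher by 1.22 ± 0.19 (limma adjusted p = 2.16e-05), a call absent with the filter applied in each species, and Hk2 was lower by the amount given above. Slc2a1 (0.91, adjusted p = 0.00014) and Slc2a4 (−0.52, adjusted p = 0.00429) were under the size threshold.

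In liver the mole-rats were lower than both outgroups in Hk3, which had 4 calls. Slc2a4 had 2 calls, Hk1, Hk2 and Slc2a2 had 1 each, and Slc2a1 had none. Of 36 gene-by-contrast results 9 were called (25%), 3 higher and 6 lower in the species named first, beside 37.6% over all genes tested. In the single contrasts the share over all genes was 37.8% for naked mole-rat against guinea pig, 41.2% for naked mole-rat against mouse, 36.2% for Damaraland mole-rat against guinea pig, 39.2% for Damaraland mole-rat against mouse, 34.2% between the mole-rats and 37.2% for guinea pig against mouse. The libraries of both species were apart in 21 of the 36 (over all genes in 65.5%). Hk3 alone was called in the same direction in all 4 contrasts of a mole-rat with an outgroup, lower in the mole-rats, as were 2.87% of all genes (6.29% in either direction). Its 4 differences were also the calls that passed a test against a difference of 1. With the filter applied in each species, 3 calls were left, those of Hk1, Hk2 and Slc2a2, and Hk3 and Slc2a4 were not tested.

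**Figure D4:**
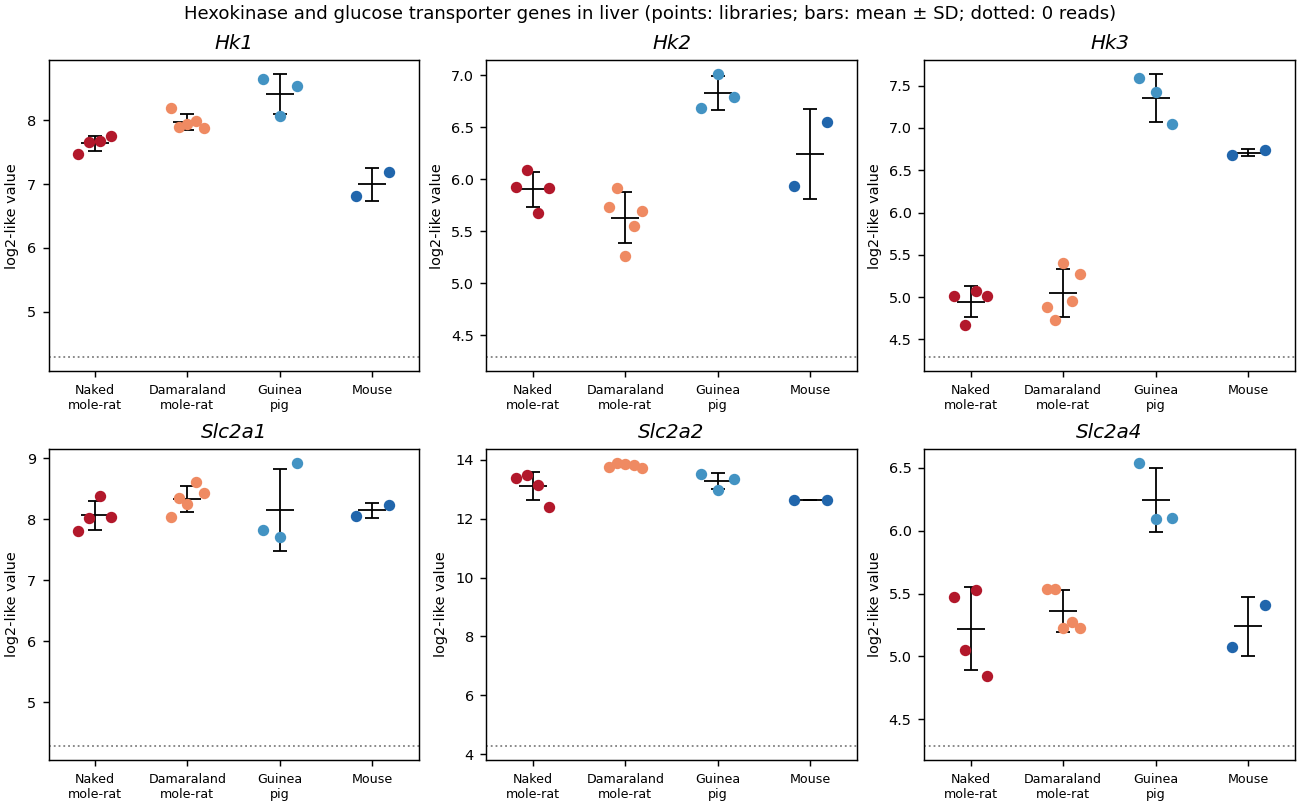
Liver libraries of the 4 species, 1 panel for each gene, on the deposited log2-like scale. Points are libraries, bars are mean ± SD (n = 4 for the naked mole-rat, 5 for the Damaraland mole-rat, 3 for guinea pig and 2 for mouse), and the dotted line at 4.29 is the value of 0 reads. Hk3 was 4.67 to 5.40 in the mole-rats and 6.68 to 7.59 in guinea pig and mouse.

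Hk3 was close to the limit of detection in mole-rat liver. Naked mole-rat livers had 5, 1, 7 and 7 reads and Damaraland livers 3, 2, 17, 4 and 9. Guinea pig livers had 223, 163 and 141 reads and mouse livers 57 and 98. Each mole-rat library was below each outgroup library, and the mole-rats overlapped with each other. Hk3 passed the filter through the outgroups: it averaged 0.65 (naked) and 0.76 (Damaraland) above the value of 0 reads in the mole-rats, 3.06 in guinea pig and 2.42 in mouse livers.

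Mean scaled reads of Hk3 were 4.34 ± 2.02 (SD, n = 4) in naked mole-rat, 6.22 ± 4.42 (n = 5) in Damaraland, 129 ± 30.6 (n = 3) in guinea pig and 69.1 ± 2.68 (n = 2) in mouse liver. On the log2-like scale naked mole-rat was lower than guinea pig by −2.41 ± 0.20 (limma adjusted p = 1.18e-08) and than mouse by −1.77 ± 0.23 (adjusted p = 2.81e-06). Damaraland mole-rat was lower by −2.30 ± 0.19 (adjusted p = 1.22e-08) and −1.66 ± 0.22 (adjusted p = 3.95e-06). On recovered reads, with voom, the same 4 differences were −4.76, −3.91, −4.47 and −3.61. The mole-rats differed by −0.11 ± 0.17 (adjusted p = 0.606), and guinea pig exceeded mouse by 0.64 ± 0.24 (adjusted p = 0.0273), under the size threshold.

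The sums of the leukocyte markers were 1654 to 4075 scaled reads in naked mole-rat, 1799 to 3336 in Damaraland, 2555 to 5040 in guinea pig and 2225 to 2488 in mouse livers, and the mole-rat ranges overlapped with both outgroups. Spi1, a myeloid transcription factor, had 20.3 to 60.4 scaled reads in naked mole-rat, 28.6 to 126 in Damaraland, 32.2 to 78.3 in guinea pig and 35.4 to 56.5 in mouse livers. Cd163, a macrophage receptor, was listed at 0 in the naked mole-rat livers and averaged 5.72, 5.39 and 354 scaled reads in Damaraland, guinea pig and mouse livers. The part of blood cells in the Hk3 result was not tested.

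Hk1 took a larger part of the hexokinase reads in mole-rat livers than in those of the outgroups. Its share was 83.6% ± 2.48 (SD, n = 4) in naked mole-rat and 89.5% ± 2.28 (n = 5) in Damaraland livers, against 59.3% ± 8.19 (n = 3) in guinea pig and 45.1% ± 0.758 (n = 2) in mouse livers. Hk3 took 2.27%, 2.66%, 25.1% and 34.4% in the same order. Values of Hk1 were 7.48, 7.67, 7.67 and 7.75 in naked mole-rat, 8.19, 7.89, 7.94, 7.98 and 7.87 in Damaraland, 8.64, 8.06 and 8.53 in guinea pig and 6.81 and 7.18 in mouse livers. The order of the species, guinea pig, Damaraland mole-rat, naked mole-rat and mouse, was the one found for Hk1 in heart. One difference was called, guinea pig above mouse by 1.41 ± 0.20 (limma adjusted p = 1.15e-05). Damaraland mole-rat exceeded mouse by 0.98 ± 0.18 (adjusted p = 0.000173) and naked mole-rat was below guinea pig by −0.77 ± 0.17 (adjusted p = 0.000624), both under the size threshold.

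Hk2 in liver did not repeat the order seen in heart. Naked mole-rat livers had 27.8, 34.5, 19.5 and 27.6 scaled reads and Damaraland livers 21.2, 27.6, 9.30, 15.8 and 20.2. Guinea pig livers had 67.1, 92.5 and 75.2 and mouse livers 28.3 and 58.7. Guinea pig livers were above all others, and those of the mole-rats overlapped.

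Damaraland mole-rat was below guinea pig in liver Hk2 by −1.20 ± 0.19 (limma adjusted p = 2.58e-05), the single call, where in heart it was above guinea pig. Naked mole-rat was below guinea pig by −0.93 ± 0.20 (adjusted p = 0.000506), and the mole-rats differed by 0.27 ± 0.17 (adjusted p = 0.175). On recovered reads, with voom, the differences of the mole-rats from guinea pig were −2.13 and −1.53, both called, as were Damaraland mole-rat against mouse (−1.32) and the average contrast (−1.42, against −0.77 on the log2-like scale).

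Slc2a2, the main hepatocyte glucose transporter gene, was abundant in the livers of every species. Values were 13.38, 13.48, 13.16 and 12.40 in naked mole-rat, 13.74, 13.89, 13.85, 13.84 and 13.73 in Damaraland, 13.51, 12.99 and 13.34 in guinea pig and 12.64 and 12.64 in mouse livers. Damaraland livers were above every other liver and differed little from each other. They exceeded mouse livers by 1.17 ± 0.24 (limma adjusted p = 0.000477), a ratio of 2.26 in mean scaled reads and the single call. They exceeded naked mole-rat livers by 0.71 ± 0.20 (adjusted p = 0.00419) and guinea pig livers by 0.53 ± 0.21 (adjusted p = 0.0368), under the size threshold. For each 1000 hepatocyte-marker reads there were 3.47 to 4.94 Slc2a2 reads in naked mole-rat, 6.82 to 8.94 in Damaraland, 7.05 to 9.14 in guinea pig and 5.54 to 6.21 in mouse livers, with naked mole-rat below the others.

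Slc2a1 did not differ between livers beyond its spread. Values were 7.82, 8.02, 8.38 and 8.04 in naked mole-rat, 8.04, 8.35, 8.25, 8.61 and 8.43 in Damaraland, 7.83, 7.71 and 8.92 in guinea pig and 8.06 and 8.23 in mouse livers. Every pair of species overlapped, and the guinea pig livers alone covered the whole range. The 6 differences lay between −0.27 and 0.19, with SEs of 0.21 to 0.29 and limma adjusted p-values of 0.262 to 0.984.

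Slc2a4 was close to the limit of detection in liver and higher in guinea pig. Guinea pig livers had 58.0, 34.7 and 35.2 scaled reads, naked mole-rat livers 13.9, 5.53, 15.2 and 2.91, Damaraland livers 15.6, 15.6, 8.58, 9.47 and 8.50, and mouse livers 5.90 and 12.3. Guinea pig libraries were above all others, and the other species overlapped. Naked mole-rat was below guinea pig by −1.02 ± 0.20 (limma adjusted p = 0.000294), and guinea pig was above mouse by 1.01 ± 0.24 (adjusted p = 0.00193).

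Both Slc2a4 calls in liver lay near the size threshold, and the gene passed the filter mainly through guinea pig, which averaged 1.96 above the value of 0 reads against 0.93 in naked mole-rat, 1.07 in Damaraland and 0.95 in mouse livers. Neither call was made when the filter was applied in each species, since the gene was then not tested. The naked mole-rat difference was lost without guinea pig liver replicate 1 (−0.88) or naked mole-rat liver replicate 2 (−0.97) or 4 (−0.90), with quantile normalisation (−0.99) and with sample weights (−0.93). The mouse difference was lost without guinea pig liver replicate 1 (0.86) or mouse liver replicate 1 (0.84), with quantile normalisation (0.77), with sample weights (0.94) and with reads thinned to equal size factors (0.95). On recovered reads, with voom, they were −2.38 and 2.15, Damaraland mole-rat was below guinea pig by −1.87, and the average contrast was −1.05, all called. The 4 adipocyte markers summed to 592 to 3594 scaled reads in Damaraland livers and to 9.91 to 94.0 in the other livers, with 1 of the 4 at 0 in mouse. Most of the Damaraland sum was Plin1, a lipid droplet gene (1683 on average), while Cidec had 0 to 2.23 scaled reads there, 11.6 to 20.7 in naked mole-rat livers, 4.07 to 9.79 in those of guinea pig and 18.8 to 42.5 in those of mouse. Their part in the Slc2a4 values was not tested.

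In the average contrast of liver 1 of the 6 genes was called, beside 28.1% of all genes: Hk3, lower by −2.03 ± 0.15 (limma adjusted p = 2.25e-09). Hk3 passed the filter through the outgroups and was not tested with the filter applied in each species. This call is therefore no support for a difference. Without the female Damaraland liver, replicate 4, the Hk3 difference was −2.02, and the same calls of the 6 genes were made.

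**Figure D5:**
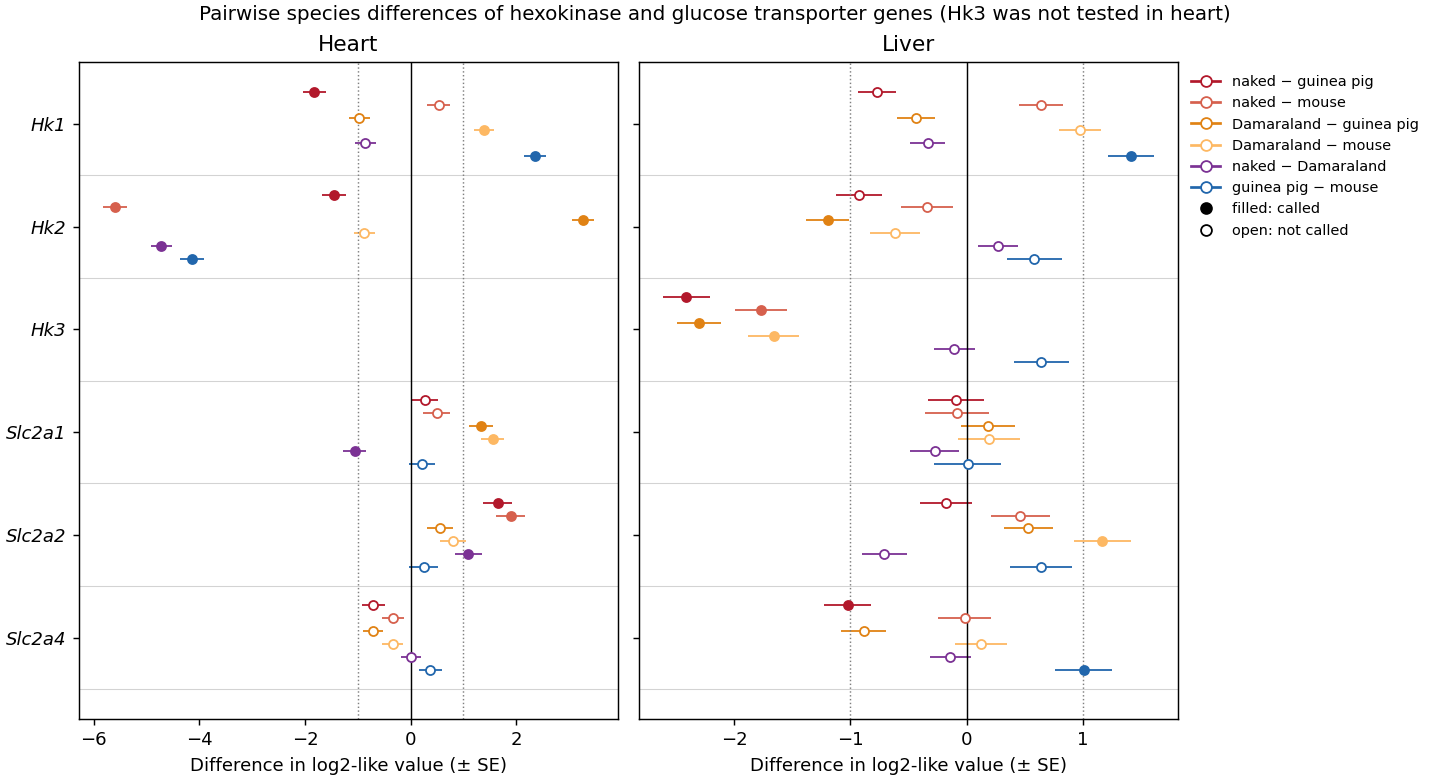
Pairwise differences between species on the log2-like scale for each gene, with heart and liver in separate panels on axes of different range; bars are ± SE, dotted lines mark a size of 1, filled points were called (adjusted p under 0.05 and size of at least 1) and open points were not. Hk2 in heart spans −5.60 to 3.26, and Slc2a1 in liver lies between −0.27 and 0.19.

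Other genes of glucose handling were taken from lists of 49 genes, of which 46 were in the tables and 41 in heart and 44 in liver were tested. The same filter on low values was used, so a listed gene with few reads in some species passed it through the others. Calls of such a gene are no support for a difference. In the average contrast 6 were higher and 5 lower in mole-rat hearts, with a median difference of −0.02 beside −0.01 over all genes, of which 10.8% were higher and 12.6% lower. In liver 8 were higher and 5 lower, with a median of −0.13 beside 0.02 over all genes, of which 15.1% were higher and 13% lower. Among the other hexose transporters 3 of 7 were higher in mole-rat heart and 4 of 7 in liver, and none was lower. These counts include Slc2a5 and Slc5a1 in heart and Slc2a10 in liver, each with few reads in an outgroup. The counts are therefore no support for a shared direction. Among 14 genes of insulin signalling and GLUT4 traffic none was higher and 2 were lower in each tissue. The 3 voltage-dependent anion channel genes, whose products hold hexokinase at the mitochondrion, had no call in the average contrast of either tissue. Against mouse, Vdac1 was lower in Damaraland hearts (−1.70) and livers (−1.27) and in guinea pig hearts (−1.27), and Vdac3 was lower in naked mole-rat hearts (−1.04) and livers (−1.23) and in guinea pig livers (−1.14). Between the mole-rats Vdac1 was higher in naked mole-rat livers (1.22).

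In heart 3 of the 41 listed genes were called higher in all 4 mole-rat contrasts and 1 lower, beside 2.06% and 2.62% of all genes. Slc5a1, a sodium-coupled glucose transporter, had 103 to 158 scaled reads in naked mole-rat and 57.6 to 123 in Damaraland hearts, against 4.67 to 13.6 in mouse hearts and 0 reads in the guinea pig hearts. Slc2a5, a fructose transporter, averaged 1231 and 1212 scaled reads against 12.3 and 50.9 in guinea pig and mouse hearts. Both Slc5a1 and Slc2a5 passed the filter through the species in which they were high, so their calls are no support for a difference. Mef2d, a transcription factor of muscle, was lower in the mole-rats, at 10.14 ± 1.11 (SD, n = 3) and 10.48 ± 0.31 (n = 5) against 11.50 ± 0.13 (n = 3) and 11.81 ± 0.03 (n = 3). The smallest of its 4 differences was 1.02 in size, close to the size threshold, and its naked mole-rat values were widely spread. Whether the Mef2d calls depend on single libraries was not examined.

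Being called against each other species in one direction held in heart for 9.02% of all genes in the naked mole-rat, 6.76% in the Damaraland mole-rat, 10.4% in mouse and 6.61% in guinea pig. Naked mole-rat hearts alone were higher in Hnf4a and Gckr, liver genes for a transcription factor and for a regulator of sugar phosphorylation. Hnf4a averaged 210 scaled reads there against 41.0, 9.36 and 7.33 in Damaraland, guinea pig and mouse hearts, and Gckr averaged 129 against 14.6, 12.5 and 2.69. These genes, like Slc2a2, were high in the hearts with the most hepatocyte-marker reads. Like Slc2a2, they passed the filter through the species in which they were high, so their calls are no support for a difference. Arrdc4, an arrestin-like gene related to Txnip, was lowest in naked mole-rat hearts (13.2 scaled reads) and highest in guinea pig hearts (749), with 150 and 314 in Damaraland and mouse hearts. Adpgk, a kinase that phosphorylates glucose with ADP, averaged 482 scaled reads in guinea pig hearts and 98.4 to 142 in the others. Mouse hearts were lower than each other species in Tbc1d1, a brake on GLUT4 traffic (246 scaled reads against 717 to 2085), and in Slc2a13, an inositol transporter (10.5 against 183 to 775). They were higher in Mlxipl, a glucose-sensing transcription factor (340 against 78.8 to 103). Arrdc4 in naked mole-rat hearts and Slc2a13 in mouse hearts had few reads, and both genes passed the filter through the other species. Calls of these genes are no support for a difference.

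In liver 3 of the 44 listed genes were called higher in all 4 mole-rat contrasts (3.42% of all genes) and none lower. Gckr averaged 7095 and 3919 scaled reads in naked and Damaraland livers against 1073 and 1462 in guinea pig and mouse livers. Slc2a10, a further SLC2A transporter, averaged 442 and 880 against 56.1 and 10.8, and Mlx, the partner of Mlxipl, averaged 776 and 1641 against 272 and 309. Slc2a10 had few reads in mouse livers, and its calls are no support for a difference. The share of all genes called in liver for 1 species against each other was 10.3% for the naked mole-rat, 8.81% for the Damaraland mole-rat, 9.38% for guinea pig and 12.2% for mouse. Naked mole-rat livers alone were lower in G6pc, the glucose-6-phosphatase that releases glucose to the blood (3071 scaled reads against 7253 to 8484), in Pik3r1, a subunit of the insulin-signalling kinase (611 against 1283 to 2743), and in Arrdc4 (36.7 against 105 to 250).

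Damaraland livers alone were higher in G6pc3, a related phosphatase (1135 scaled reads against 73.9 to 318), in Slc37a4, the glucose-6-phosphate carrier (6567 against 2447 to 2980), and in Slc2a8 (577 against 3.09 to 223). Guinea pig livers alone were lower in Slc2a8 (3.09 scaled reads) and Slc2a5 (2.17). Mouse livers were higher in Sort1 and Lnpep, both of GLUT4 vesicles (1038 and 1383 scaled reads against at most 170 and 416), and lower in Slc2a13 (4.99 against 105 to 192). Slc2a8 and Slc2a5 in guinea pig livers and Slc2a13 in mouse livers had few reads. These genes passed the filter through the other species, so their calls are no support for a difference.

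Genes with a pattern like that of each of these genes were taken by Pearson's r over the 14 libraries of a tissue, which share their species and so are described without a test. In heart Hk2 was like Dcun1d5 (r = 0.975), Hk1 like Mfsd13a (0.976) and Aldoc, an aldolase of glycolysis (0.966), and Slc2a1 like Mrpl16 (0.960). Slc2a2 was most like Apoh (0.983) and Alb (0.977), both of which encode plasma proteins made by hepatocytes. Slc2a4 was most like Pex2 (0.944). In liver Hk3 was most like Rfk (0.981), Hk1 like Nucb1 (0.947), Slc2a2 like Bcl10 (0.944), Hk2 like Wnk4 (0.931) and Slc2a4 like Trip11 (0.921). Slc2a1, which did not differ between livers, had no gene above Emc10 (0.724).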

How the data were processed

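The authors deposited 1 table per tissue of log2-like values from a variance-stabilising transform, with a mouse gene identifier in each row; cutadapt, Salmon, DESeq2 and the mouse build GRCm38 are named in the submitters' processing notes. The assignment of genes across species is not given in the sources used here. The tables also hold 26 columns of other series, which were not used. Inverting the transform gave whole reads for 100% of values in every library. Genes with a mean over all libraries of less than 1 above the value of 0 reads were left out, which kept 10667 in heart and 10887 in liver. limma 3.58.1 (R 4.3.3) was run on the log2-like values separately in each tissue, with a coefficient per species, a variance trend and Benjamini-Hochberg adjustment over all genes tested. The 2 tables were transformed separately, so tissues were not compared by a test. Replicates are separate animals. The genes and lists were chosen with earlier results of these data known. Listed genes were named when called in all 4 mole-rat contrasts, or in 1 species against each other (at most 3 per species), and the genes most alike by the highest r. The pipeline was tested on simulated data. Alternatives covered the threshold, filters, scaling, variance model, sample weights, a replicate block, voom, thinned reads and leaving out each library. Depth limits Hk3 in both tissues, Slc2a2 in heart and Slc2a4 in liver. A few genes that these rules select are not reported here.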

Additional observations from a re-analysis of the deposited data

Results flagged for a closer look

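In naked mole-rat liver, replicate 2 had an Hk3 value of 4.67 (1 read) while the other 3 livers lay between 5.01 and 5.07. Its gap to them was 0.839 of the group's range, above the critical value of Dixon's test. It was the 1 such library among 18 groups checked, and chance gives about 1 in 20.

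A further 3 differences had opposite signs in heart and liver, with every library of one species above every library of the other in each tissue. Hk2 of Damaraland mole-rat against guinea pig was 3.26 in heart and −1.20 in liver. Hk2 of guinea pig against mouse was −4.14 in heart and 0.58 in liver. Slc2a2 of naked against Damaraland mole-rat was 1.10 in heart and −0.71 in liver. The difference between tissues was not tested, because the tables were transformed separately.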

How the results depend on the processing

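Of 77 gene-by-contrast results 26 were called, and none of the 26 changed sign under any alternative in which it was tested. Called and uncalled results together gave 1953 recomputed values. Of these, 31 lost a call (17 of them with an adjusted p still under the threshold) and 43 gained one. Only values of the 26 called results could lose a call. Calls of genes that a stricter filter left untested are not among the 31. Counts of pairwise calls (14 in heart, 9 in liver) became 21 and 21 without a size threshold, 7 and 4 when tested against a difference of 1, 11 and 2 with the mean above the table median and 11 and 3 above the floor in each species. Counts in the average contrast (2 in heart, 1 in liver) became 4 and 4 with no limit on size, 0 and 1 in the test against 1, 1 and 0 with either stricter filter, and 3 and 3 with voom. The stricter filters leave fewer genes tested: both drop Slc2a2 in heart and Hk3 and Slc2a4 in liver with all their calls, and the filter at the table median also drops Hk2 in liver. Leaving out single replicates gave 12 to 15 and 7 to 10 pairwise calls, and 2 to 3 and 1 to 1 average calls.

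Uncalled differences that changed sign were small. In heart, Slc2a4 of naked mole-rat against mouse was 0.059 with quantile normalisation, and of naked against Damaraland mole-rat −0.0048 with libraries centred, −0.27 with sample weights, −0.19 with the replicate block and −0.18 to 0.11 with single replicates left out. In liver, Hk3 between the mole-rats was 0.017 with thinned reads. Liver Slc2a1 of Damaraland mole-rat was −0.22 against guinea pig with sample weights and −0.064 against mouse with the block; guinea pig against mouse was −0.18 with the block, −0.0018 with voom and −0.0060 thinned; the average contrast was −0.18 with weights and −0.10 with the block. Liver Slc2a4 of naked mole-rat against mouse was 0.048 centred, 0.0076 weighted and 0.095 blocked, and of Damaraland mole-rat against mouse −0.15 with quantile normalisation. With single replicates left out, liver Slc2a1 spanned −0.31 to 0.30 (naked mole-rat against guinea pig), −0.19 to 0.0047 (naked mole-rat against mouse), −0.037 to 0.57 (Damaraland mole-rat against guinea pig), −0.38 to 0.23 (guinea pig against mouse) and −0.059 to 0.24 (average); liver Slc2a2 of naked mole-rat against guinea pig −0.32 to 0.059; and liver Slc2a4 against mouse −0.18 to 0.15 (naked) and −0.046 to 0.29 (Damaraland). The cause was not tested.

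No label pairs animals of different species by replicate number. Same-numbered libraries had correlations of −0.26 to 0.30 in heart and −0.23 to 0.15 in liver. Their medians were −0.018 and 0.026, beside −0.0095 and −0.0023 for libraries of other numbers. In heart 6 and in liver 2 of 14 libraries correlated best with their own number, which was not tested against chance. With the replicate block, pairwise calls were 15 in heart and 8 in liver, average calls 2 and 1, and liver Slc2a4 of naked mole-rat against guinea pig was −0.94 and not called.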
